A study of Rattus norvegicus with 36 samples.

Results

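The Cyp2b subfamily of cytochrome P450 genes was measured in rat liver by 4 of the 31042 probe sets tested, each a group of short array probes read as 1 value. They are every probe set whose platform annotation holds a symbol starting with Cyp2b. The first carries the symbols of both Cyp2b1 and Cyp2b2, is called Cyp2b1/Cyp2b2 here and is reported as a probe set, with no value given to either gene. The other 3 carry Cyp2b3, Cyp2b12 and Cyp2b21, with 1 symbol each.

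The livers came from male Harlan Sprague Dawley rats, 7 weeks old at the start, given decaBDE, a brominated flame retardant also called decabromodiphenyl oxide, by oral gavage in corn oil. The vehicle group received corn oil alone, and the other 5 groups received decaBDE daily at 0.1 mg/kg, at 0.959 mg/kg, at 9.59 mg/kg, at 95.9 mg/kg and at 959 mg/kg. Dosing lasted 5 days in a volume of 5 ml/kg, and RNA was taken from the left lobe of the liver a day after it ended. Each of the 6 groups has 6 arrays, 36 in all, with values as log2 RMA signals (an array signal after background correction, quantile normalization and summary per probe set). All groups share strain, sex, diet and corn oil. The labels do not state that each array is a separate rat, so p-values measure the spread between arrays.

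Cyp2b enzymes are membrane-bound monooxygenases that hydroxylate and dealkylate drugs, steroids and other fat-soluble chemicals, with electrons delivered by NADPH-P450 reductase, the product of Por. Cyp2b1 and Cyp2b2 are the classical phenobarbital-inducible P450s of rat liver and are nearly identical in sequence. Their transcription is switched on by the nuclear receptor CAR (gene Nr1i3), which moves into the nucleus and pairs with RXR, and in part by the related receptor PXR (Nr1i2), on enhancer elements that lie farther upstream than the promoter stretch printed here. Cyp2b3 is a liver member known for not answering to phenobarbital.

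The stretch just before each gene's annotated start is printed to show how alike the genes behind the shared probe set are, beside the same stretch of Cyp2b3 and Cyp2b21. The sequences are from RefSeq on build GRCr8, 5′ to 3′ on the gene's own strand, 110 bases each. Cyp2b1 lies at chr1:90645988-90646097 on the plus strand, Cyp2b2 at chr1:90722133-90722242 on the plus strand, Cyp2b3 at chr1:90780358-90780467 on the plus strand and Cyp2b21 at chr1:91042753-91042862 on the minus strand. Capitals mark GTTGCATAA, a match to the letters that C/EBP factors of liver bind, and CATAAAAG, a TATA-like stretch.
Cyp2b1: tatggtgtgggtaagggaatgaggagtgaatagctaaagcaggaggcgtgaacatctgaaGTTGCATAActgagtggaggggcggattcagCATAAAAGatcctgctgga
Cyp2b2: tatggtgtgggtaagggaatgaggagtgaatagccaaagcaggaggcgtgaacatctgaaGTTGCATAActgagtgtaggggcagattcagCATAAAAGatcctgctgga
Cyp2b3: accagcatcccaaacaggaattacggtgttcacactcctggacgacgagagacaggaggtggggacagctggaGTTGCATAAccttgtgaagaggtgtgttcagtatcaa
Cyp2b21: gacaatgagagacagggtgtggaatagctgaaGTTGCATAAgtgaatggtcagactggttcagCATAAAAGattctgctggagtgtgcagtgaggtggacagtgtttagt

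The Cyp2b1 and Cyp2b2 stretches were identical at 107 of 110 bases (97.3%). The annotated starts do not line up between all 4 genes: GTTGCATAA begins at base 61 of the Cyp2b1 and Cyp2b2 stretches, at base 74 for Cyp2b3 and at base 33 for Cyp2b21. From the start of GTTGCATAA to the end of CATAAAAG all 3 genes that hold both strings have 39 bases, and Cyp2b1 was identical there to Cyp2b2 at 37 of them and to Cyp2b21 at 31. Set at GTTGCATAA without gaps, Cyp2b1 and Cyp2b21 were identical at 57 of the 82 bases that both stretches cover (69.5%), and Cyp2b1 and Cyp2b3 at 52 of 97 (53.6%). Aligned end to end with gaps counted, Cyp2b1 was identical to Cyp2b21 at 50.9% of columns and to Cyp2b3 at 51.2%. For Cyp2b12, whose stretch is not printed, it was 55.6%. The order of likeness thus depended on how the stretches were aligned. Both letter strings were chosen after reading these stretches, so these counts are a description. The strings were searched on both strands in the 300-base window that RefSeq-based promoters cover here. GTTGCATAA and CATAAAAG can overlap in the letters CATAA, and do not overlap in the stretches printed. GTTGCATAA was in 32 of 33469 windows (0.0956%) and CATAAAAG in 354 (1.06%). Both were in 3 windows (0.00896%), those of Cyp2b1, Cyp2b2 and Cyp2b21. The Cyp2b3 window held GTTGCATAA alone, and the Cyp2b12 window held neither string exactly. Near matches were not counted, and the 110 bases before Cyp2b12, Cyp2b14 and Cyp2b15 hold gttgcttaa and gataaaag. Whether any of these strings is bound was not tested. All 5 symbols of the probe sets were found in the promoter table. The genes sit together: in GRCr8 gene order, 18 protein-coding genes run from Cyp2s1 to Cyp2t1, and 8 of them are Cyp2b genes. For 3 of those 8, Cyp2b14l1, Cyp2b14 and Cyp2b15, no probe set carried the symbol.

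As a check of the series as a whole, the medians of the arrays lay between 5.12 and 5.21, and r between any pair of arrays, taken across probe sets (which are not independent), between 0.988 and 0.996. Replicate 6 at 0.1 mg/kg differed from the rest, with an estimated array weight of 0.517. Its signal for Cyp2b1/Cyp2b2, 11.49, lay near its group's median of 11.46. Hepatocyte markers were high on all arrays, with list means of 14.27 to 14.37 on the log2 scale.

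Cyp2b1/Cyp2b2 rose at every dose from 0.959 mg/kg upward, 4.21-fold at 0.959 mg/kg and 6.06-fold at 959 mg/kg, and most of the rise lay between 0.1 and 0.959 mg/kg. Its vehicle arrays ran from 9.90 to 11.52 on the log2 scale, with a median of 11.11. At 0.1 mg/kg the lowest array was 10.96, the median 11.46 and the highest 11.87, and 2 of the 6 exceeded all vehicle arrays. These ranges overlap.

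At 0.959 mg/kg the lowest array was 12.90, the median 12.99 and the highest 13.26. At 9.59 mg/kg the arrays ran from 13.31 to 13.71 with a median of 13.57, and at 95.9 mg/kg from 13.26 to 13.69 with a median of 13.53. At 959 mg/kg they ran from 13.25 to 13.83 with a median of 13.59. All 24 arrays at 0.959 mg/kg and above lay above all 12 arrays of vehicle and 0.1 mg/kg, as did 4 probe sets in all, 0.0129% of those tested. The 3 highest doses overlapped each other throughout.

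**Figure D1:**
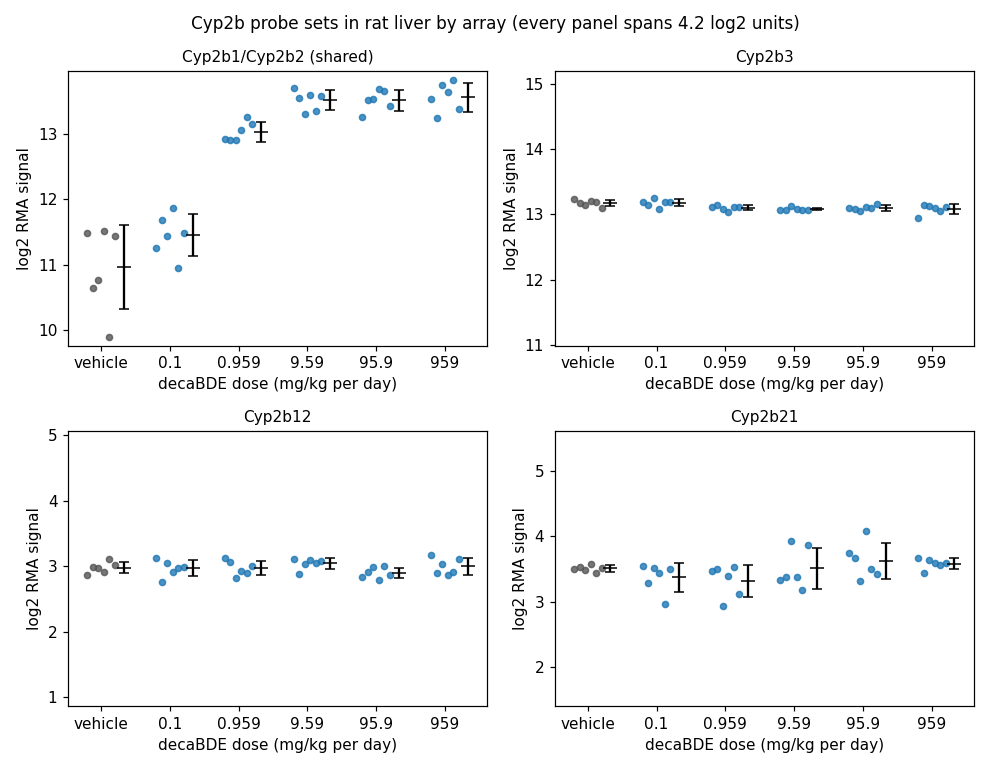
Log2 RMA signal of the 4 Cyp2b probe sets on each of 36 arrays, by daily decaBDE dose in mg/kg (points are arrays, bars mean ± SD, n = 6; all panels span the same number of log2 units). The Cyp2b1/Cyp2b2 panel steps up between 0.1 and 0.959 mg/kg, from means of 11.45 to 13.04, and the other panels stay close to flat.

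Group means of Cyp2b1/Cyp2b2 were 10.96 ± 0.645 (SD, n = 6) for vehicle, 11.45 ± 0.321 at 0.1 mg/kg and 13.04 ± 0.151 at 0.959 mg/kg. They were 13.52 ± 0.155 at 9.59 mg/kg, 13.51 ± 0.160 at 95.9 mg/kg and 13.56 ± 0.222 at 959 mg/kg. Beside a span of 2.60 log2 units between the lowest and the highest mean, the SDs of the dosed groups were small.

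Against vehicle, the log2 difference of Cyp2b1/Cyp2b2 at 0.959 mg/kg was 2.07 (95% interval 1.71 to 2.43, adjusted p = 3.32e-09 by limma with Benjamini-Hochberg adjustment over all probe sets). 1 of 4 Cyp2b probe sets passed the threshold of 0.05 there, where 0.029% of all probe sets did, and this one had the smallest p and the largest rise of all 31042. At 9.59 mg/kg the difference was 2.55 (interval 2.19 to 2.91, adjusted p = 7.55e-12) and 1 of 4 passed beside 0.116% of all. At 95.9 mg/kg it was 2.55 (interval 2.19 to 2.91, adjusted p = 7.67e-12), with 1 of 4 passing beside 0.0902%. At both doses it was again first by p and by size of rise.

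At 959 mg/kg the log2 difference of Cyp2b1/Cyp2b2 was 2.60 (interval 2.24 to 2.96, adjusted p = 2.18e-12), 1 of 4 passed beside 0.11% of all probe sets, and Cyp2b1/Cyp2b2 was second by p and by size. As fold changes, the rises were 4.21 (interval 3.28 to 5.39) at 0.959 mg/kg, 5.86 (4.57 to 7.52) at 9.59 mg/kg, 5.86 (4.57 to 7.51) at 95.9 mg/kg and 6.06 (4.72 to 7.77) at 959 mg/kg. At each of these 4 doses, 6 of 6 arrays lay above every vehicle array, which held for 0.267%, 0.435%, 0.332% and 0.283% of all probe sets in order of dose. The exact two-sided permutation test of the difference in means gave p = 0.00216 at each, unadjusted over 20 such tests, the smallest that 924 splits of 6 and 6 arrays allow. All comparisons with vehicle use the same 6 vehicle arrays.

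The lowest dose did not pass. At 0.1 mg/kg the log2 difference of Cyp2b1/Cyp2b2 was 0.49 (interval 0.13 to 0.85, a 1.40-fold difference), with an unadjusted limma p of 0.00926 and an adjusted p of 1. The exact permutation test gave p = 0.13, unadjusted. At this dose 0 of 4 Cyp2b probe sets and 0% of all probe sets passed limma's adjusted threshold, 1175 of 31042 had an unadjusted p under 0.05, and 0.0741% had all 6 arrays above every vehicle array. By size of positive difference, Cyp2b1/Cyp2b2 was 19th among all probe sets at 0.1 mg/kg.

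Most of the log2 rise was reached at the second dose. As a share of the log2 difference at 959 mg/kg, Cyp2b1/Cyp2b2 stood at 18.7% at 0.1 mg/kg, 79.7% at 0.959 mg/kg, 98.2% at 9.59 mg/kg and 98.2% at 95.9 mg/kg. On the linear scale, counting the fold change above 1, the shares were 7.93%, 63.4%, 96.2% and 96.1%. Without vehicle replicate 5, the lowest vehicle array, the shares at 0.1 and 0.959 mg/kg were 11.5% and 77.9% on the log2 scale and 4.96% and 62.2% on the linear scale. Little of the rise on either scale lay above 9.59 mg/kg. These shares are of array signal, and whether it is in proportion to the RNA at such high signals was not tested.

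Between neighbouring doses, the step of Cyp2b1/Cyp2b2 from 0.1 to 0.959 mg/kg was 1.59 on the log2 scale (interval 1.23 to 1.94, adjusted p = 4.02e-06 by limma), a 3.00-fold rise, where 0.00644% of probe sets passed. It was the smallest p of all probe sets in that comparison, and all 6 arrays lay above all 6 of the lower dose, as for 0.0902% of probe sets.

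From 0.959 to 9.59 mg/kg the log2 difference was 0.48 (interval 0.12 to 0.84, adjusted p = 0.524), which did not pass, where 0.00322% of probe sets did. All 6 arrays at 9.59 mg/kg nevertheless lay above all 6 at 0.959 mg/kg, as for 0.164% of probe sets, and the exact permutation test gave p = 0.00216, unadjusted over 20 tests between doses. The limma fit takes 1 spread for all groups, and that of Cyp2b1/Cyp2b2 was wider in the vehicle group than at these doses. In a fit of the 24 arrays at 0.959 mg/kg and above, chosen after seeing the data, the interval of this step was 0.28 to 0.68 and its adjusted p was 0.113, the 7th smallest p of all.

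Above 9.59 mg/kg no further step was detectable in the array signal. From 9.59 to 95.9 mg/kg the log2 difference was -0.0013 (interval -0.36 to 0.36, adjusted p = 0.999), and the 24-array fit narrowed the interval to -0.20 to 0.20. From 95.9 to 959 mg/kg the difference was 0.048 (interval -0.31 to 0.41, adjusted p = 0.992), or -0.15 to 0.25 in the 24-array fit. These intervals leave room for further changes of up to about that size. The signal was among the highest on these arrays. Counted from the highest probe set, its ranks were 55 to 97 at 9.59 mg/kg, 54 to 94 at 95.9 mg/kg and 47 to 98 at 959 mg/kg. Whether signals this high still rise in proportion to the RNA was not tested. 959 mg/kg against 0.959 mg/kg gave 0.53 (interval 0.17 to 0.89, adjusted p = 0.934), with 5 of 6 arrays above all 6 of the lower dose and an exact permutation p of 0.00433, unadjusted.

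**Figure D2:**
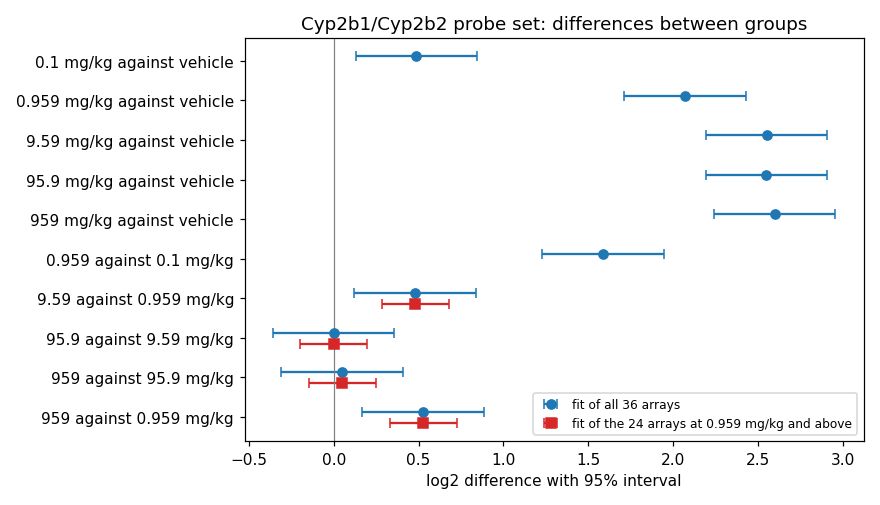
Log2 differences of Cyp2b1/Cyp2b2 between groups with 95% intervals from limma, for the fit of all 36 arrays (circles) and, between doses of 0.959 mg/kg and above, the fit of those 24 arrays (squares). The step from 0.1 to 0.959 mg/kg is 1.59 and the step from 9.59 to 95.9 mg/kg is -0.0013.

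A straight line in dose rank gave Cyp2b1/Cyp2b2 a slope of 0.56 log2 units per dose step (interval 0.50 to 0.62, adjusted p = 9.96e-16 by limma), and 1 of 4 Cyp2b probe sets passed beside 0.393% of all. The moderated F-test over all doses gave an adjusted p of 1.53e-14, the second smallest p of all probe sets, with 1 of 4 passing beside 0.135%. The rise was not a straight line, as the steps between doses show.

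The spread of Cyp2b1/Cyp2b2 between arrays was wider in vehicle and at 0.1 mg/kg than at the higher doses, and was not tested. The vehicle arrays differed by up to 1.61 log2 units, or 3.06-fold, while the widest gap within any group at 0.959 mg/kg or above was 0.58. The vehicle SD was 4.28 times that at 0.959 mg/kg and 2.90 times that at 959 mg/kg. Replicate 5 of the vehicle group was the lowest array at 9.90, and the next lowest vehicle array was at 10.65. In other measures that array resembled the rest, with a median of 5.16, an array weight of 1.22 and a mean r of 0.994 with the other arrays. Without it, a choice made after seeing the data, the vehicle arrays spanned 0.86 log2 units, less than the 0.91 at 0.1 mg/kg, and their SD of 0.428 was 2.84 times that at 0.959 mg/kg and 1.93 times that at 959 mg/kg. Without it, the difference at 0.959 mg/kg was 1.86, which still passed the threshold, and the difference at 0.1 mg/kg was 0.27.

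Cyp2b3 gave a strong and steady signal on all arrays and passed the threshold at no dose. For Cyp2b3 too, whether signals this high are in proportion to the RNA was not tested. Its vehicle arrays ran from 13.10 to 13.24 with a median of 13.18. Those at 0.1 mg/kg ran from 13.09 to 13.25 and those at 0.959 mg/kg from 13.04 to 13.15. At 9.59 mg/kg they ran from 13.07 to 13.12, at 95.9 mg/kg from 13.05 to 13.17 and at 959 mg/kg from 12.94 to 13.14, with a median of 13.11. The 4 higher doses sat slightly below vehicle, and every group overlapped the vehicle range. Its SD within groups, 0.048, was lower than that of all but 0.203% of probe sets, against 0.327 for Cyp2b1/Cyp2b2.

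The log2 differences of Cyp2b3 from vehicle were -0.074 at 0.959 mg/kg, -0.094 at 9.59 mg/kg, -0.077 at 95.9 mg/kg and -0.098 at 959 mg/kg. The last corresponds to a signal 1.07 times lower. Adjusted p-values by limma were 0.844, 0.481, 0.724 and 0.725, and the interval at 959 mg/kg ran from -0.18 to -0.019. At 0.1 mg/kg the difference was under 0.001 in size. Exact permutation tests, unadjusted over 20, gave p = 0.0173, 0.00433, 0.0173 and 0.013 from 0.959 mg/kg upward, with 2, 5, 4 and 3 of 6 arrays below every vehicle array. The slope over dose rank was -0.021 per step (adjusted p = 0.224), which passed only without limma's pooling of variances across probe sets (adjusted p = 0.0305).

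**Figure D3:**
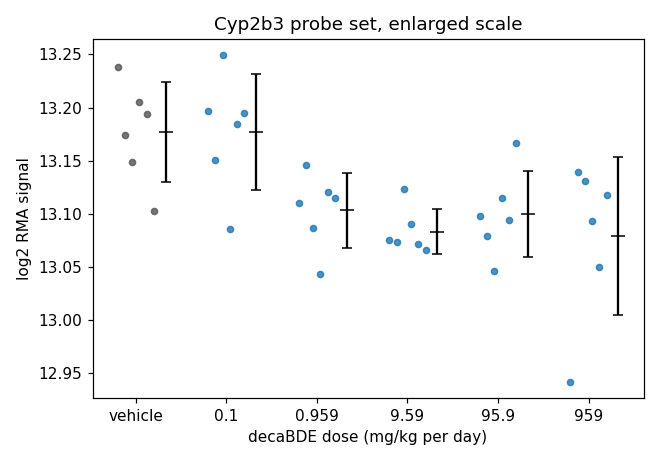
Log2 RMA signal of Cyp2b3 on each array by daily dose in mg/kg, on an enlarged axis that does not start at 0 (points are arrays, bars mean ± SD, n = 6). The vehicle and 0.1 mg/kg means are both 13.18, and the means of the 4 higher doses lie between 13.08 and 13.10.

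Cyp2b12 and Cyp2b21 gave faint signals, with means over all arrays of 2.98 and 3.49, where the median of all values was 5.16. The files hold no detection calls, so whether either probe set was above background is unknown. The Cyp2b12 arrays ran from 2.87 to 3.11 for vehicle and from 2.86 to 3.17 at 959 mg/kg, with medians of 2.98 and 2.97. Its log2 differences from vehicle lay between -0.081 at 95.9 mg/kg and 0.062 at 9.59 mg/kg, and no adjusted p by limma was below 0.834. The interval at 959 mg/kg ran from -0.11 to 0.14. Between 9.59 and 95.9 mg/kg its difference was -0.14 (adjusted p = 0.727).

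Cyp2b21 was even across vehicle arrays, from 3.44 to 3.58, and more scattered at the middle doses. Its arrays ran from 2.97 to 3.54 at 0.1 mg/kg, from 2.93 to 3.52 at 0.959 mg/kg and from 3.17 to 3.93 at 9.59 mg/kg. They ran from 3.31 to 4.09 at 95.9 mg/kg and from 3.44 to 3.67 at 959 mg/kg. The SD was 0.048 for vehicle and 0.31 at 9.59 mg/kg, the reverse of the order for Cyp2b1/Cyp2b2. Differences from vehicle lay between -0.19 at 0.959 mg/kg and 0.11 at 95.9 mg/kg, with adjusted p-values of 0.89 or more. 959 mg/kg against 0.959 mg/kg differed by 0.26 (adjusted p = 0.934 by limma, exact permutation p = 0.0108 unadjusted over 20), with 5 of 6 arrays above all 6 of the lower dose.

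The responses of the probe sets were compared within arrays, as the signal of Cyp2b1/Cyp2b2 minus that of each other member. From 0.959 mg/kg upward this difference grew against vehicle by 2.15 to 2.70 for Cyp2b3, by 2.08 to 2.63 for Cyp2b12 and by 2.26 to 2.55 for Cyp2b21, on the log2 scale. In each of these 12 comparisons 6 of 6 arrays lay above every vehicle array, and the exact permutation test gave p = 0.00216, unadjusted over 15 tests and the smallest possible. How often other pairs of probe sets separate in this way was not counted. All 12 use the Cyp2b1/Cyp2b2 signal and the same vehicle arrays, so they largely restate its rise. At 0.1 mg/kg the growth was 0.49, 0.50 and 0.62, with exact permutation p-values of 0.141, 0.162 and 0.0541, which do not pass. In array signal, the response of Cyp2b1/Cyp2b2 thus differed from that of Cyp2b3 at the 4 higher doses. For Cyp2b12 and Cyp2b21 it is unknown whether the signal lay above background, so the same difference says nothing of how those genes responded.

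No receptor gene of the Cyp2b response passed the threshold. Of 13 genes listed for CAR, PXR and their partners, 12 were measured and 0 passed limma's threshold at any dose. At an unadjusted p under 0.05 the count was 1 (8.33%) at 959 mg/kg, beside 6.08% of all probe sets, and 0 at the other doses. Taking for each gene the probe set with the smallest F-test p, it was also 1 at 959 mg/kg, but 2 at 9.59 mg/kg. The gene at 959 mg/kg was Nr1i3, which encodes CAR, with a log2 difference of 0.42 (SE 0.186, adjusted p = 0.782 by limma) from a vehicle mean of 7.88. Part of that difference rests on vehicle replicate 5, at 6.92 against 7.86 to 8.39 on the other vehicle arrays. The arrays at 959 mg/kg ran from 7.89 to 8.62. Nr1i2, which encodes PXR, differed by -0.0090 at 959 mg/kg (adjusted p = 0.994). Hnf4a, a liver transcription factor, differed by -0.17, Egfr, the growth factor receptor whose signalling holds CAR in the cytoplasm, by -0.38, and the coactivator gene Ppargc1a by 0.18. Their adjusted p-values were 0.875, 0.894 and 0.913.

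Other targets of CAR and PXR rose in part, at most 8 of 26 at any dose, each by a smaller log2 difference than Cyp2b1/Cyp2b2. Of 32 listed, 26 were measured, and 0, 3, 8, 6 and 8 rose past the threshold from 0.1 to 959 mg/kg, while 0 fell at any dose. These are 0%, 11.5%, 30.8%, 23.1% and 30.8% of the list, beside 0%, 0.029%, 0.116%, 0.0902% and 0.11% of all probe sets. The median log2 difference of the list was 0.0078, 0.17, 0.27, 0.27 and 0.27, beside medians over all genes of 0.0056, 0.0053, 0.011, 0.0067 and 0.0042. At an unadjusted p under 0.05 the counts were 1, 11, 16, 16 and 16 of 26 in order of dose. Beside them stood 3.79%, 6.06%, 8.61%, 7.01% and 6.08% of all probe sets. The list was written with earlier results of these data known, so it is a description of the setting of the Cyp2b rise.

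Among the genes for oxidation and hydrolysis, 5 of 16 rose at 959 mg/kg. Cyp3a23-3a1, a steroid and drug hydroxylase, rose by 0.64, Cyp2c6v1, a phenobarbital-inducible Cyp2c gene, by 0.42, Ces2c, a carboxylesterase, by 0.95 and Por, the electron donor of microsomal P450s, by 0.58 on the log2 scale. Ephx1, microsomal epoxide hydrolase, completed the 5 with 0.39. Cyp3a9 differed by 1.39, more than any other listed target, but varied widely (SE 0.318) and did not pass (adjusted p = 0.0723). Of 6 conjugation genes, Ugt2b1, a glucuronosyltransferase, rose by 0.90 and Gstm1, a glutathione transferase, by 0.28 (adjusted p = 0.0434). Of 4 transporters, Abcc3, which exports glucuronides to the blood, rose by 1.17. Of 4 growth-related genes 0 passed at any dose. At most 2 had an unadjusted p under 0.05, at 9.59 and at 95.9 mg/kg (50% at each), beside 8.61% and 7.01% of all probe sets. At 959 mg/kg Gadd45b differed by 0.45 and Ccnd1 by -0.34.

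Among the targets, 3 had already risen at 0.959 mg/kg: Cyp3a23-3a1 by 0.41 (adjusted p = 0.00216 by limma), Cyp2c6v1 by 0.29 (adjusted p = 0.00216) and Ugt2b1 by 0.60 (adjusted p = 0.041). As a share of its own log2 difference at 959 mg/kg, the 8 targets called there stood between 40.5% for Gstm1 and 73.7% for Por at 0.959 mg/kg, where Cyp2b1/Cyp2b2 stood at 79.7%. The 8 were picked by their call at 959 mg/kg, and the difference at that dose also divides each share, which can lower the shares. For none of the 8 did 959 against 0.959 mg/kg pass (adjusted p of 0.924 or more), and whether their shares differ from that of Cyp2b1/Cyp2b2 was not tested.

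**Figure D4:**
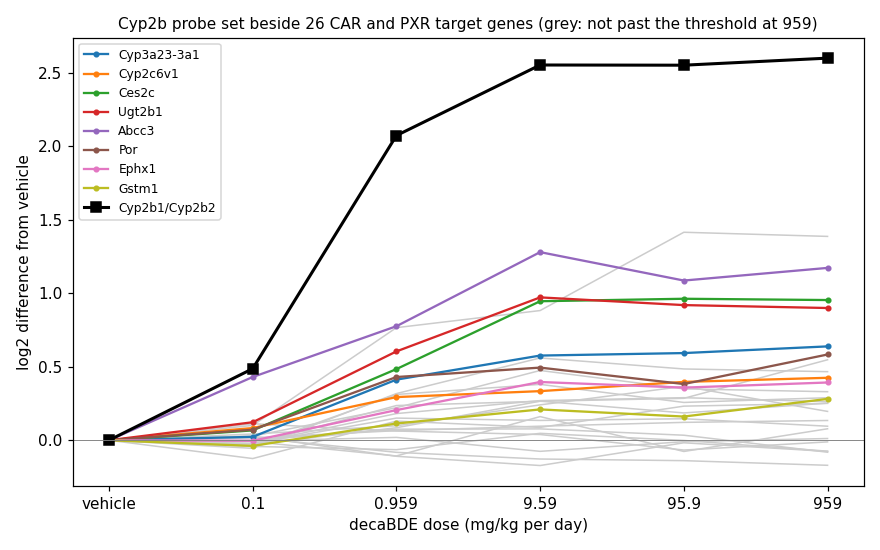
Log2 difference from vehicle by daily dose in mg/kg for Cyp2b1/Cyp2b2 (black squares), the 8 CAR and PXR targets that passed the threshold at 959 mg/kg (coloured) and the other measured targets (pale grey), n = 6 arrays per group. Cyp2b1/Cyp2b2 reaches 2.60 at 959 mg/kg, and Abcc3, the highest coloured line there, 1.17.

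Of 22 Cyp2 genes outside Cyp2b, 0, 1, 1, 1 and 2 rose from 0.1 to 959 mg/kg and 0 fell, with a median difference of 0.037 at 959 mg/kg. The share called was 4.55% from 0.959 to 95.9 mg/kg and 9.09% at 959 mg/kg, where 0.11% of all probe sets were called. Cyp2c6v1 was the gene called at 0.959, 9.59 and 95.9 mg/kg. Cyp2c11, the main male-specific P450 of rat liver, joined it at 959 mg/kg with a rise of 0.24 (adjusted p = 0.0163). The Cyp2 genes beside the Cyp2b genes gave no calls: 7 others in the row from Cyp2s1 to Cyp2t1 were measured, 0 passed at any dose, and the lowest adjusted p by limma was 0.214, for Cyp2a1. Each was read from 1 probe set with 1 symbol, and probe sets that share Cyp2a1 or Cyp2a2 with other symbols were left out. Cyp2a3, Cyp2g1 and Cyp2s1 gave faint signals, with vehicle means from 3.53 for Cyp2a3 to 4.63 for Cyp2s1. The median of all values was 5.16. Whether these signals lay above background is unknown, so their lack of calls says nothing of how those genes responded.

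In whole liver, a change in the number of cells of a type and a change in RNA per cell cannot be told apart. Hepatocyte markers had list means of 14.33 ± 0.0313 (SD, n = 6) for vehicle and 14.30 ± 0.0290 at 959 mg/kg, with 0 of 7 called at any dose and 1 at an unadjusted p under 0.05 at 959 mg/kg, where Cyp2b1/Cyp2b2 had risen 6.06-fold. Kupffer cell and macrophage markers were lower than in vehicle in 8 of 8 measured genes at every dose, with median differences of -0.47, -0.49, -0.31, -0.16 and -0.20, but 0 passed. At an unadjusted p under 0.05 there were 4 of 8 at 0.1 mg/kg, where 3.79% of all probe sets had one, 6 of 8 at 0.959 mg/kg, where 6.06% had one, and 0 at the higher doses. Their list means ran from 8.06 to 9.17 for vehicle and from 7.96 to 8.67 at 0.959 mg/kg.

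Cyp2b induction is known to be strongest near the central vein, so markers of that zone were read as well. Of 7 pericentral markers 2 rose at 959 mg/kg, where 0.11% of all probe sets were called, and 0 passed at the lower doses. The 2 were Cyp1a2, by 0.53 (adjusted p = 1.06e-07 by limma), and the glutamate transporter gene Slc1a2, by 0.53 (adjusted p = 0.0488). Slc1a2 has 1 other probe set, which was not called at 959 mg/kg. Glul, the glutamine synthetase of the cells around the vein, differed by -0.028 at 959 mg/kg. Periportal markers were lower in 6 of 7 genes at 0.959 mg/kg (median -0.19), in 7 of 7 at 9.59 and 95.9 mg/kg (medians -0.23 and -0.21) and in 3 of 7 at 959 mg/kg. None passed by limma at any dose. At an unadjusted p under 0.05 there were 3, 5, 2 and 2 of 7 from 0.959 to 959 mg/kg, beside 6.06%, 8.61%, 7.01% and 6.08% of all probe sets.

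Markers of lymphocytes, endothelium, stellate cells, cholangiocytes and erythroid cells gave 0 calls by limma in 155 comparisons of 31 genes over 5 doses. Of the 155, 25 had an unadjusted p under 0.05, a larger share than the 3.79% to 8.61% of all probe sets at the 5 doses. Stellate cell and fibroblast markers were higher than in vehicle in 8 of 8 genes at 95.9 mg/kg (median 0.32), with 5 at an unadjusted p under 0.05 beside 7.01% of all probe sets. Cholangiocyte markers were higher in 5 of 5 genes at 959 mg/kg (median 0.28), with 3 beside 6.08%. At 0.959 mg/kg endothelial markers were lower in 6 of 6 genes (median -0.18), with 3 at an unadjusted p under 0.05, and lymphocyte markers in 7 of 8 (median -0.23), with 4, beside 6.06%. Erythroid markers were lower in 4 of 4 genes at 959 mg/kg (median -0.11), with 1 at an unadjusted p under 0.05 beside 6.08%. Other doses differed. At 959 mg/kg the stellate list had a median of 0.082 with 1 such p, and the endothelial and lymphocyte lists had 0 (medians -0.086 and -0.062). At 0.1 mg/kg the erythroid median was -0.17 and the cholangiocyte median 0.066, with 0 such p in either list. The part of cell makeup and zonation in the rise of Cyp2b1/Cyp2b2 was not tested.

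Of 20826 probe sets with 1 gene symbol, the 5 whose signal followed Cyp2b1/Cyp2b2 most closely over 36 arrays were Cyp2c6v1 (r = 0.955), Cyb5a (r = 0.917), Mmgt1 (r = 0.915), Ugt2b1 (r = 0.911) and Ces2c (r = 0.892). Cyb5a encodes cytochrome b5, which also passes electrons to P450s. These points share the dose groups, so the correlations largely restate the differences between groups. The 3 lowest values belonged to Fga (r = -0.717), Cyp2b3 (r = -0.679) and Hao1 (r = -0.671). Cyp2b3, a neighbour of Cyp2b1 and Cyp2b2 in the genome, thus had the second lowest r with the probe set of its relatives, over signals that all lay between 12.94 and 13.25.

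Within groups, after subtracting each group's mean, the closest 5 were Cyp2c6v1 (r = 0.715), Nr1i3 (r = 0.653), Pcp4l1 (r = 0.640), Dapk1 (r = 0.618) and Syap1 (r = 0.596). The deviations again cover 36 arrays, and the likeness rested in part on 1 of them. Vehicle replicate 5, the array with the lowest Cyp2b1/Cyp2b2, also had the lowest vehicle signal of Nr1i3, 6.92 against 7.86 to 8.39 on the other vehicle arrays. It had the lowest of Pcp4l1, 4.86 against 7.35 to 8.02, and of Cyp2c6v1, 13.56 against 13.73 to 13.87.

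Without that array, a choice made after seeing the data, the within-group r was 0.505 for Cyp2c6v1, 0.462 for Nr1i3, 0.350 for Pcp4l1 and 0.453 for Syap1. Their ranks among all single-symbol probe sets then fell to 24, 64, 488 and 81, and that of Dapk1 to 28. Over the 30 dosed arrays alone, Cyp2c6v1 had r = 0.588 (rank 4) and Nr1i3 r = 0.538 (rank 17), while Dapk1 had r = 0.278 (rank 1339). Between members, the within-group r of Cyp2b1/Cyp2b2 was -0.177 with Cyp2b3, -0.323 with Cyp2b12 and 0.163 with Cyp2b21.

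**Figure D5:**
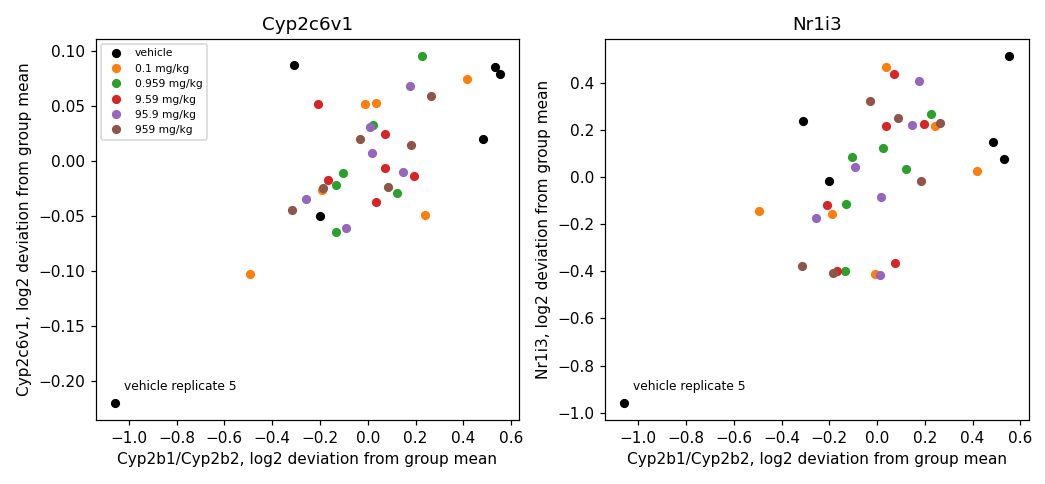
Deviation of Cyp2c6v1 (left) and Nr1i3 (right) from the group mean against that of Cyp2b1/Cyp2b2, both in log2 units, 1 point per array (36 arrays, coloured by dose). Vehicle replicate 5 sits alone at the lower left of both panels, and without it r falls from 0.715 to 0.505 for Cyp2c6v1 and from 0.653 to 0.462 for Nr1i3.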

How the data were processed

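Liver RNA was measured on 36 Affymetrix 3′ arrays, 6 per group, grouped by sample title. The authors deposited log2 signals made by RMA with the affy package, per the submitters' processing notes (versions and genome build not given in the sources used here). The file holds 31099 probe sets, and its 57 control probe sets were dropped. The platform annotation gave 1 symbol to 20826 of the 31042 tested, several to 436 and none to 9780.

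All groups were fitted together in R 4.3.3 by limma 3.58.1 (functions lmFit and eBayes, 30 residual degrees of freedom, two-sided, Benjamini-Hochberg over all probe sets, threshold 0.05). The design text names the maanova package at a false discovery rate of 5%, and limma took its place. Exact permutation tests over arrays are given unadjusted, with their number, since the members were chosen. The members and gene lists were chosen with earlier results of these data known. A list uses 1 probe set per gene, the one with the highest mean, and up to 4 genes of each list are named by the smallest p at 959 mg/kg. Likeness was ranked by Pearson's r.

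Replicate numbers were not treated as pairs. Deviations of arrays with the same number in different groups had a median r of -0.034 over 90 pairs, beside 0.0085 over 450 pairs with different numbers. These medians show no sign of pairing but cannot exclude it. Alternatives covered normalization, probe set filters, variance moderation, array weights, a block, only the groups compared and leaving out each array. Steps were tested on simulated data. Alignments used Biopython 1.88 and plots matplotlib 3.10.9. The arrays' number, 6 per group, limits the precision.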

Additional observations from a re-analysis of the deposited data

How the results depend on the processing

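The calls of Cyp2b1/Cyp2b2 held under every alternative tried: 0.959, 9.59, 95.9 and 959 mg/kg passed and 0.1 mg/kg did not, with differences at 959 mg/kg of 2.58 to 2.65. Leaving out each array gave 0.27 to 0.60 at 0.1 mg/kg, 1.86 to 2.18 at 0.959 mg/kg and 2.39 to 2.71 at 959 mg/kg. With the replicate number as a block, its differences were unchanged, 0.49, 2.07, 2.55, 2.55 and 2.60 in order of dose, with adjusted p-values of 1, 1.77e-08, 8.17e-11, 8.29e-11 and 2.52e-11, and the block changed no call of a Cyp2b probe set. Fits of only the compared groups called 1, 19, 16 and 13 probe sets at 0.959, 9.59, 95.9 and 959 mg/kg, against 9, 36, 28 and 34, with fewer arrays to estimate the spread.

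Sign changes were confined, among the Cyp2b contrasts and alternatives run, to differences that did not pass. A second quantile normalization gave 0.031 for Cyp2b1/Cyp2b2 from 9.59 to 95.9 mg/kg and 0.00094 for the Cyp2b12 slope. Subtracting array medians gave 0.0044 for Cyp2b3 at 0.1 mg/kg, 0.0034 for Cyp2b12 at 0.959 mg/kg and 0.00070 for its slope, and array weights gave -0.0035 for Cyp2b12 at 959 mg/kg. Differences in medians gave 0.0059 for Cyp2b3 and 0.00043 for Cyp2b12 at 0.1 mg/kg, -0.13 for Cyp2b21 at 9.59 mg/kg and -0.014 for Cyp2b12 at 959 mg/kg. The Cyp2b3 slope of -0.021 passed without variance moderation (adjusted p = 0.0305). The cause was not tested. Leaving out each array gave, for Cyp2b3, -0.015 to 0.018 at 0.1 mg/kg, -0.037 to 0.0028 from 0.959 to 959 mg/kg and -0.033 to 0.0064 from 95.9 to 959 mg/kg. For Cyp2b12 it gave -0.041 to 0.030 at 0.1, -0.035 to 0.023 at 0.959 and -0.020 to 0.043 at 959 mg/kg, with -0.0068 to 0.0021 for the slope, -0.036 to 0.035 from 0.1 to 0.959 mg/kg and -0.013 to 0.051 from 0.959 to 959 mg/kg. For Cyp2b21 it gave -0.083 to 0.069 at 9.59 mg/kg, -0.14 to 0.022 from 0.1 to 0.959 mg/kg and -0.10 to 0.053 from 95.9 to 959 mg/kg. For Cyp2b1/Cyp2b2 it gave -0.043 to 0.050 from 9.59 to 95.9 mg/kg and -0.0050 to 0.11 from 95.9 to 959 mg/kg. The growth of Cyp2b1/Cyp2b2 over Cyp2b21 at 0.1 mg/kg was 0.42 to 0.73, with unadjusted exact permutation p-values of 0.0238 to 0.102, and was under 0.05 without vehicle replicate 1, 4 or 6.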
